A study of Mus musculus with 4 samples.

Results

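The 10 genes described here encode the cyclins, kinases and inhibitors that set whether a cell leaves G1 and starts to copy its DNA. They were picked by name and role from the 32285 genes of the count tables, and comprise 3 D cyclins (Ccnd1, Ccnd2 and Ccnd3), 2 E cyclins (Ccne1 and Ccne2), 2 kinases (Cdk4 and Cdk6) and 3 inhibitors (Cdkn1b, Cdkn2c and Cdkn2d). Their messenger RNA was counted in unsorted mouse thymocytes by droplet single-cell RNA sequencing, in 2 libraries of genotype Tox4;F/F (control 1 and 2) and 2 of genotype Tox4;F/F;Lck+ (cKO 1 and 2). Per the study's methods, loxP sites flank exons 4 to 6 of Tox4 in both groups, the floxed allele was made in C57BL/6 eggs, and the mice were gender-matched littermates of 6 to 8 weeks. The cKO mice carry in addition a Cre recombinase under the proximal Lck promoter, which is active in T lineage cells from the DN3 stage on, so that cells of other lineages and the earliest thymocytes keep Tox4. The comparison asks in which stages the G1 machinery is transcribed, and whether that differs without Tox4. The study describes 2 pairs of mice for these 4 libraries, so the spread behind each p-value is that between 2 mice per genotype.

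In G1, D cyclins bind the kinases Cdk4 and Cdk6, and the complexes phosphorylate the retinoblastoma protein, which releases E2F factors. Those switch on the E cyclins, which work with the kinase Cdk2 at the start of S phase. The inhibitors Cdkn2c (p18Ink4c) and Cdkn2d (p19Ink4d) bind Cdk4 and Cdk6 and keep D cyclins away, whereas Cdkn1b (p27Kip1) binds cyclin-kinase complexes and blocks above all those with Cdk2. In the thymus, cells that pass β-selection divide as large double-positive (DP) blasts and then leave the cycle to rearrange their T cell receptor α genes.

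Of 33414 cells that passed the filters, 28536 (85.4%) fell into 6 stages of αβ T cells, which were named from marker genes and are therefore "X-like" classes rather than sorted populations. They were 547 DN (double-negative, CD4- CD8-), 3535 DPbla (DP blasts), 16086 DPre (resting, rearranging DP cells), 5544 DPsel (DP cells under selection), 1975 CD4SP and 849 CD8SP (single-positive) cells. Clustering left the 10 genes out. The matrices held between 42716798 and 62007453 unique molecular identifiers (UMIs) per library, and a cell of DPre held 2353 to 3176 on average against 8257 to 9961 in DPbla. Mitochondrial UMIs exceeded 10% in 48.3% and 46.1% of the deposited cells of control 1 and cKO 1, against 20.6% and 23.1% in control 2 and cKO 2. Between 10 and 33 cell barcodes were shared by any pair of libraries, at most 0.391% of the smaller one. Unnamed clusters held 8.75%, 7.29%, 13.8% and 10.6% of the kept cells of control 1, control 2, cKO 1 and cKO 2. Levels are given as CPM, the UMIs of a gene per 1000000 UMIs summed over the cells of a stage in a library, and since the 3′ kit counts each transcript once at its end, levels of different genes can be set side by side without a correction for length.

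Tox4, the targeted gene, was not called in any stage. Its log2 fold change (cKO over control) lay between -0.33 in DPsel, with 87.8 and 84.4 CPM in control against 66.4 and 69.6 in cKO, and -0.04 in CD4SP. Where the counted 3′ reads of Tox4 lie relative to exons 4 to 6 was not examined, so these values are no check of the deletion.

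The D cyclins changed places along the stages. Ccnd3 (chr17:47505051-47599691, plus strand, GRCm38) was the main D cyclin of DPbla and DPre, with 1301 ± 268 CPM in DPbla and 1340 ± 111 CPM in DPre (mean ± SD, n = 4 libraries, genotypes together). It had 744 ± 68.8 CPM in DPsel, 414 ± 32.4 in CD4SP, 321 ± 32.5 in CD8SP and 245 ± 16.6 in DN. In this order of levels only the ranges of DPre and DPbla overlapped. Ccnd2 (chr6:127125162-127152193, minus strand) ran the other way. It had 677 ± 52.6 CPM in CD4SP, 550 ± 26.9 in CD8SP, 316 ± 23.1 in DN and 298 ± 65.8 in DPsel, but 11.7 ± 3.46 in DPre and 8.58 ± 2.73 in DPbla. CD4SP was thus 78.9-fold above DPbla. The ranges of DN and DPsel overlapped, as did those of DPre and DPbla. Stages rest on genes of the same cells, so these differences are described and not tested.

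As a share of D cyclin UMIs, Ccnd3 made up 99.5% and 99.4% in control DPbla and 98.9% and 98.7% in cKO DPbla. The 95% Wilson intervals, which cover counting error only, ran from 99.3 to 99.6% in control 1 and from 98.5 to 98.9% in cKO 2. In DPre the share was 98.5 to 99.2% over the 4 libraries. UMIs of both cyclins were counted in DN cells, with Ccnd3 at 43.2 to 44.1%, and in single-positive cells Ccnd2 led with 60.3 to 65.4%. Every library showed this order. The 227 to 266 CPM of Ccnd3 in DN stood beside 78.6 to 150 CPM in the erythroid and 175 to 305 CPM in the B cell class. In the same libraries the neutrophil class (28 cells) had 194 to 365 CPM and that of mononuclear phagocytes 369 to 832 CPM. The part of free RNA from the many DP cells in these values was not tested.

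The order of both cyclins differed within DPsel, among 3 clusters that are called by their leading genes. In the cluster led by Cd5, Arap2 and Cd6 (1687 cells), Ccnd3 had 1941 and 1818 CPM in control and 1429 and 1404 in cKO, while Ccnd2 had 7.26 to 21.8 CPM. In the cluster led by Itm2a, Nr4a1 and Cd5 (1830 cells), Ccnd3 had 603 to 798 CPM and Ccnd2 32.6 to 54.0 CPM. In the cluster led by Itm2a, Il7r and Izumo1r (2027 cells), Ccnd2 stood at 472 to 647 CPM and Ccnd3 at 355 to 428 CPM. Nr4a1 is an early target of T cell receptor signals, and Il7r encodes the interleukin-7 receptor of thymocytes that have been selected. Ccnd2 was above Ccnd3 in the last of the 3 in all 4 libraries, and below it in the others.

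**Figure D1:**
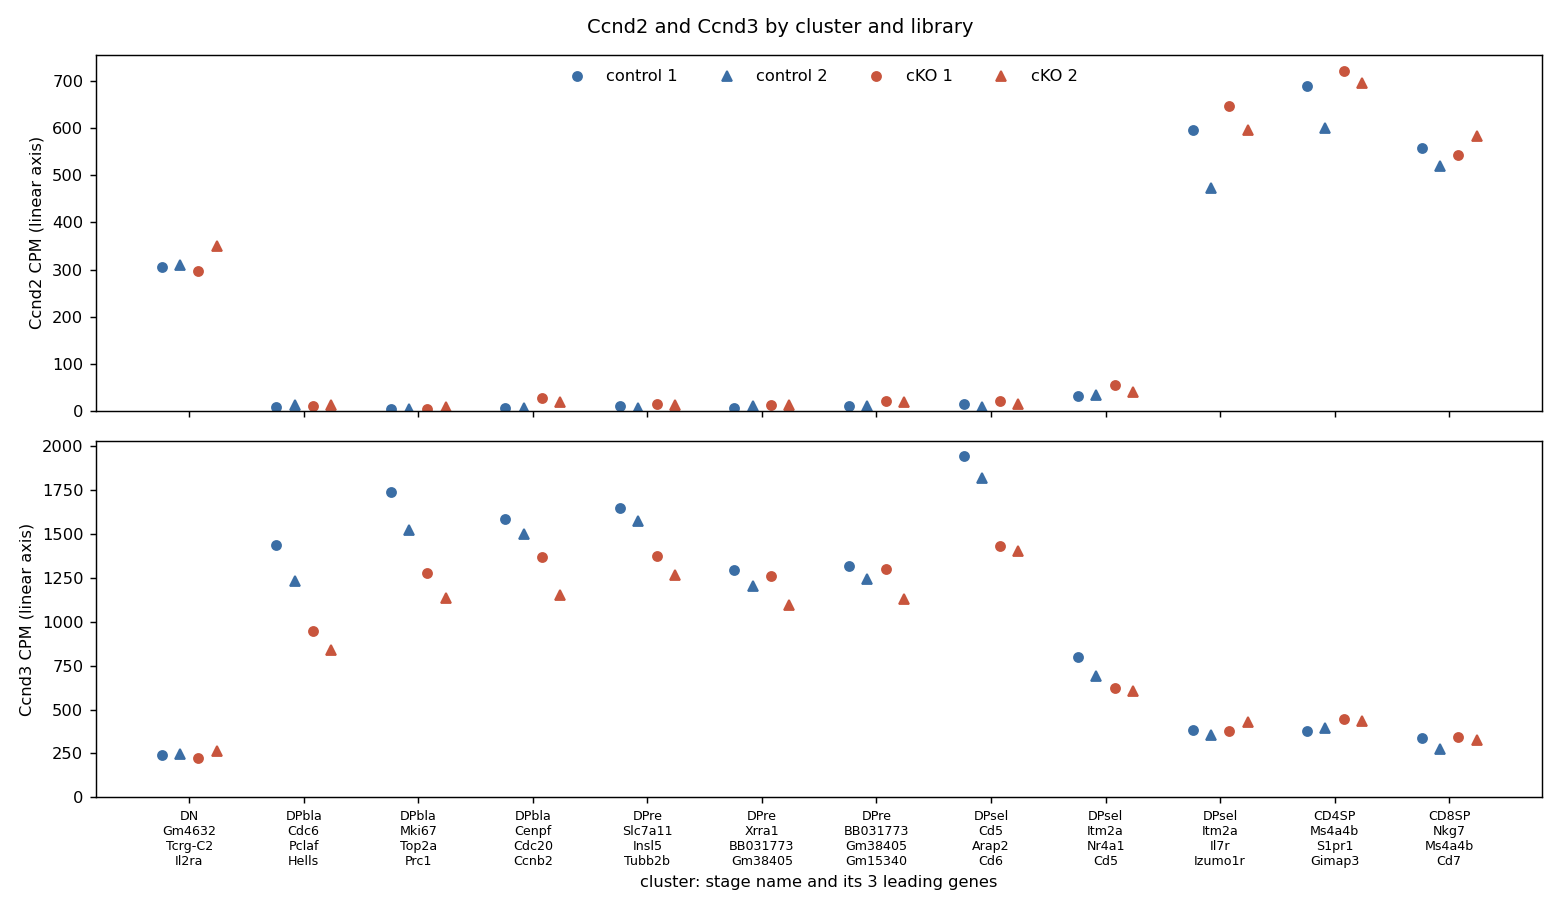
CPM of Ccnd2 (upper panel) and Ccnd3 (lower panel, both axes linear) in clusters of each stage, 1 point per library, with colour for genotype and symbol for the replicate number. The DPre clusters led by Gm44175, A430035B10Rik and Rag1 (996 cells) and by Rsad2, Ifit1 and Rtp4 (120 cells) are not drawn. In the DPsel clusters led by Cd5, Arap2 and Cd6, by Itm2a, Nr4a1 and Cd5, and by Itm2a, Il7r and Izumo1r, Ccnd3 falls from at least 1404 to at most 428 CPM and Ccnd2 climbs from at most 21.8 to at least 472 CPM.

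Ccnd1 (chr7:144929931-144939925, minus strand), which many other tissues use, was hardly counted in T cells. Its highest value in the 6 stages was 4.84 CPM, in DPre of cKO 1. DN of control 1 and CD8SP of control 2 had no Ccnd1 UMI, where 3 UMIs would have been 5.19 and 1.73 CPM. The class with markers of mononuclear phagocytes held more, with 128 and 84.1 CPM in control and 46.7 and 102 CPM in cKO. Within that class it came mainly from 44 cells of a cluster led by Siglech, Klk1 and Tyrobp, at 294 to 559 CPM, against 14.5 to 31.1 CPM in 1105 cells led by C1qb, C1qa and C1qc. Outside the named classes, 129 cells of an unnamed cluster led by H2-Eb1, Cd74 and H2-Aa had 203 to 413 CPM, the most Ccnd1 UMIs of any cluster (184), and 437 cells of one led by Ccl5, Fscn1 and Zmynd15 had 58.4 to 117 CPM. Whether the few UMIs in T stages came from free RNA of such cells was not tested.

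The E cyclins were highest in DP blasts, but not in all of them. In the DPbla cluster led by Cenpf, Cdc20 and Ccnb2 (945 cells), Ccne1 had 2.47 to 7.38 CPM and Ccne2 1.65 to 5.26 CPM. The DPbla clusters led by Cdc6, Pclaf and Hells and by Mki67, Top2a and Prc1 had means of 64.2 and 69.9 CPM of Ccne1. Their means of Ccne2 were 121 and 71.1 CPM. Ccne1 (chr7:38097984-38107534, minus strand) had 55.3 ± 6.17 CPM in DPbla and 33.5 ± 5.31 in CD8SP, and at most 8.95 CPM in any library of the other 4 stages. Ccne2 (chr4:11191351-11204779, plus strand) had 75.6 ± 4.05 CPM in DPbla and 11.4 ± 3.92 in CD8SP, and at most 10.1 CPM elsewhere. Ccne1 of DPbla, CD8SP and CD4SP did not overlap, while CD4SP, DN, DPre and DPsel overlapped with their neighbours. For Ccne2 only DPbla stood apart from the next stage. In CD8SP Ccne1 was highest in the cells assigned to S phase, with 69.8, 78.8, 69.9 and 54.0 CPM, against 28.3, 47.6, 58.2 and 36.8 CPM in cells assigned to G2/M and 9.55 to 11.3 CPM in cells assigned to G1. Ccne2 had a mean of 24.5 CPM in S, 14.9 in G2/M and 2.49 in G1 cells of CD8SP. S cells made up 18.5 to 23.6% of CD8SP, and the markers of cycling cells (8 of 8 detected) summed to 764 and 952 CPM in control and 1309 and 1277 CPM in cKO CD8SP. At a finer clustering Ccne1 had 22.8 CPM in CD4SP and 14.7 in CD8SP, so the level in each single-positive class depends on where the cycling cells are put.

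Cdk6 was highest in DN cells in all 4 libraries, and Cdk4 in DN or DP blasts. Cdk6 (chr5:3341485-3531008, plus strand) had 1131 and 1027 CPM in control DN and 1019 and 1008 in cKO DN. Its next stage was DPbla with 85.9 ± 20.6 CPM, and the lowest was CD4SP with 41.0 ± 5.80 CPM, 25.5-fold below DN. The ranges from DPbla through DPsel and DPre to CD8SP overlapped from each to the next. Cdk4 (chr10:127063534-127067920, plus strand) varied over a narrower range. It had 270 ± 24.3 CPM in DN, 243 ± 40.0 in DPbla, 173 ± 15.7 in CD8SP, 153 ± 19.4 in DPsel, 130 ± 17.7 in CD4SP and 81.9 ± 13.7 in DPre. DN and DPbla overlapped, and in cKO they were level, at 285 and 286 CPM in cKO 1 and 267 and 268 CPM in cKO 2. CD8SP overlapped with DPsel, and DPsel with CD4SP. Of the UMIs of both kinases, Cdk6 took 77.9 to 82.7% in DN, 23.2 to 28.6% in DPbla, 44.0 to 46.5% in DPre and 21.4 to 28.1% in single-positive cells.

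The 250 bases before the start of the genes were searched in RefSeq (GRCm38.p6), which had windows for 7 of the 10 genes (Ccnd3, Ccne1, Cdk4, Cdk6, Cdkn1b, Cdkn2c and Cdkn2d). CACGTG, the E-box that Myc and related factors can bind, reads the same on both strands and occurred in 6.02% of 32841 such windows. Cdk4 held 4 copies, 172, 118, 98 and 11 bases before the start, and 7 windows (0.0213%) held as many. Cdk6 held 1 copy 220 bases before the start that RefSeq gives, and the other 5 genes had none in these windows. RefSeq starts can differ from the spans given here, and the window of Cdk6 (chr5:3343643-3343892) lies inside the span of that gene. The E2F words TTTCCCGC, TTTGGCGC, TTTCGCGC and TTTGCCGC, on either strand, were in 1.86% of all windows and in none of these genes. The GC box GGGCGG, on either strand, was in 32.7% of all windows and in 6 of the 7 genes. The windows of Cdk4 (chr10:127063285-127063534, plus strand) and Cdkn1b (chr6:134920151-134920400, plus strand), and 26 bases around the Cdk6 copy (chr5:3343663-3343688, plus strand), are shown because the kinase genes and Cdkn1b moved in opposite directions with genotype in DP blasts. Capitals mark CACGTG.
Cdk4: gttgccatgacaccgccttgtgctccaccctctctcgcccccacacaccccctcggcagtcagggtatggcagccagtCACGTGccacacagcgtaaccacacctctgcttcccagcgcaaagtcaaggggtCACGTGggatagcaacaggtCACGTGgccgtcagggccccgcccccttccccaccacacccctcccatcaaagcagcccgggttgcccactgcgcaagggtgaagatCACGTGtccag
Cdk6: tctgcggcccCACGTGggtgaacccc
Cdkn1b: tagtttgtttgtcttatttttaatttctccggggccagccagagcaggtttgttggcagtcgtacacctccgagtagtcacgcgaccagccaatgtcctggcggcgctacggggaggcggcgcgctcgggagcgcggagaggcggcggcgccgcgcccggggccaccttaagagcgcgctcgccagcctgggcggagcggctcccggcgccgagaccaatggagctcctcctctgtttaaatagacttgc
A match of these letters is a description of the window and not a site that was measured.

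Cdkn1b was highest in resting DP cells, and Cdkn2c and Cdkn2d in DP blasts, Cdkn2d in 3 of the 4 libraries. Cdkn1b (chr6:134920401-134925513, plus strand) was highest in resting DPre, with 300 and 303 CPM in control and 282 and 281 CPM in cKO. It had 158 ± 26.2 CPM in DPsel, 156 ± 27.8 in DPbla, 107 ± 22.1 in CD4SP, 71.9 ± 5.48 in DN and 69.7 ± 10.4 in CD8SP. DPre stood apart from every other stage, DPsel overlapped with DPbla, and CD4SP, DN and CD8SP overlapped from each to the next. Cdkn2c (chr4:109660876-109667189, minus strand) was highest in dividing cells. It had 139 ± 33.1 CPM in DPbla, 30.2 ± 6.68 in DPre, 25.9 ± 5.15 in CD8SP, 14.6 ± 2.78 in DN, 13.3 ± 2.16 in DPsel and 7.44 ± 1.47 in CD4SP. DPbla was 18.7-fold above CD4SP, and DPre with CD8SP, and DN with DPsel, overlapped. At the finer clustering (resolution 1.5) Cdkn2c had 154 CPM in DPbla, 19.0 in CD4SP and 11.3 in CD8SP, so CD4SP was no longer the lowest. Cdkn2d (chr9:21288410-21291407, minus strand) stayed high in both DP stages, with 279 ± 67.0 CPM in DPbla and 237 ± 33.8 in DPre. It had 164 ± 15.7 CPM in DPsel, 151 ± 6.88 in CD4SP, 150 ± 13.9 in CD8SP and 54.5 ± 12.5 in DN. Of neighbours in this order, DPre and DPsel, and CD8SP and DN, did not overlap, and the others did.

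**Figure D2:**
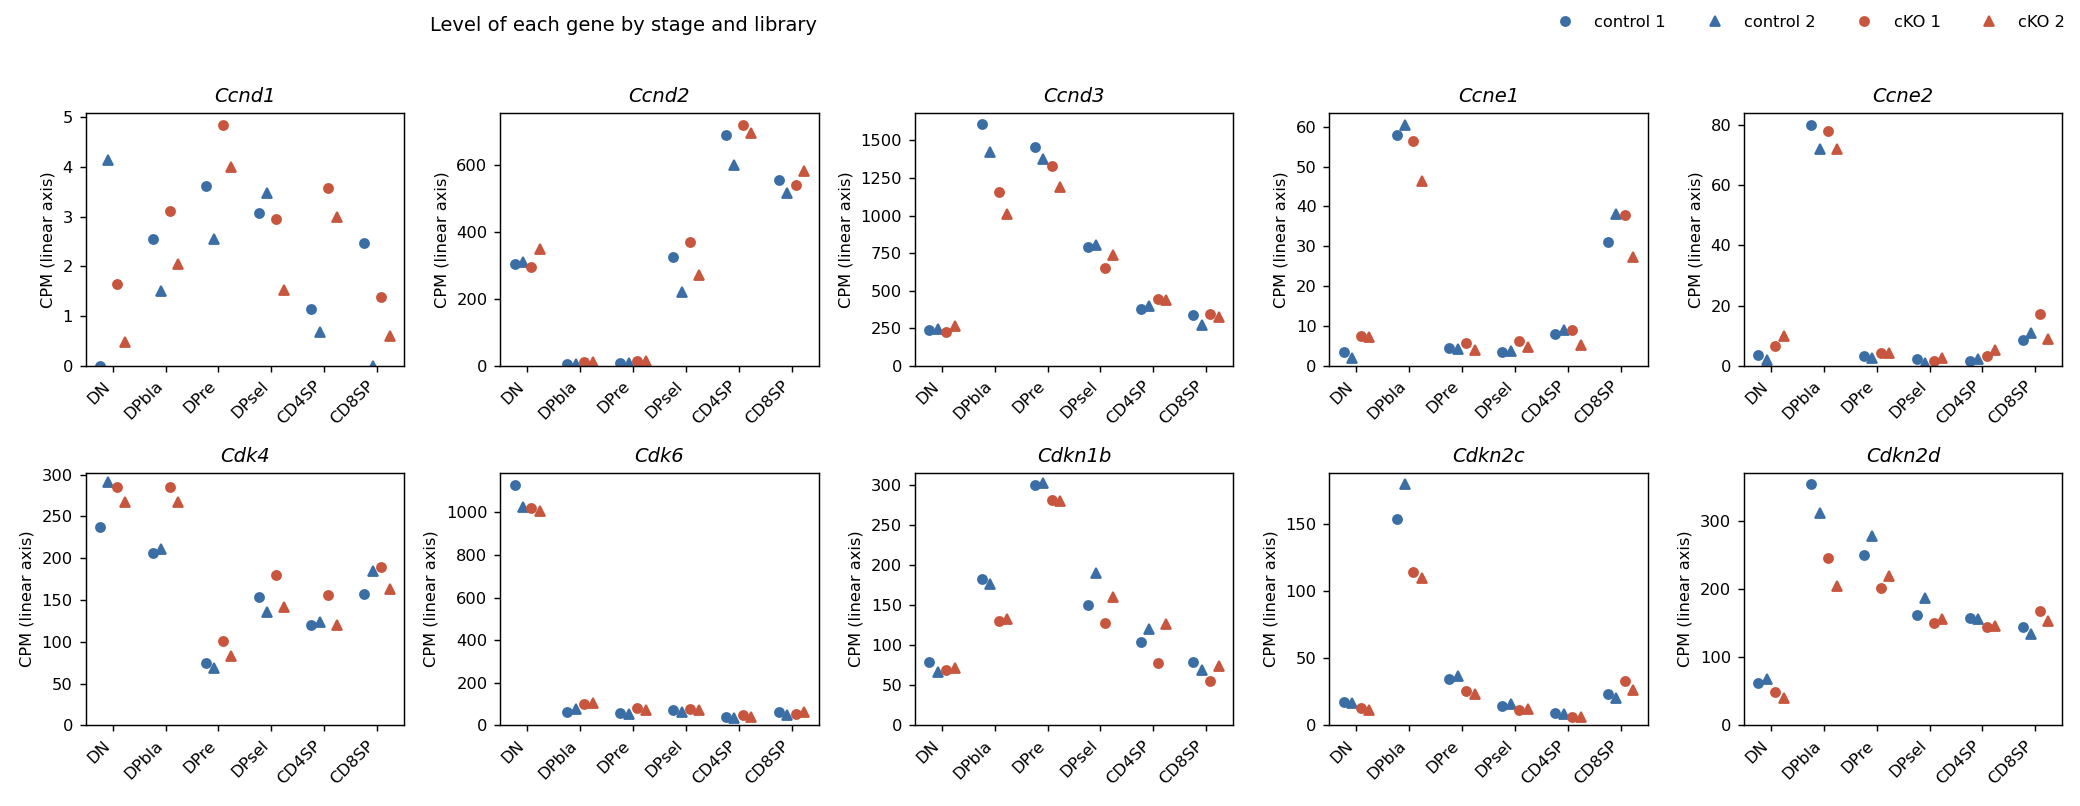
CPM (linear axis from 0) of each of the 10 genes in the 6 stages, 1 point per library, with colour for genotype and symbol for the replicate number. Ccnd3 peaks in DPbla and DPre, Ccnd2 in CD4SP and CD8SP, Cdk6 in DN at over 1000 CPM, the E cyclins and Cdkn2c in DPbla, and Cdkn1b in DPre.

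DP blasts were divided further by assigned phase, from lists of S (42 genes) and G2/M (54 genes) genes without the 10 described here. The E cyclins and Cdk4 were higher in S than in G2/M, with Ccne1 at a mean of 80.2 against 44.3 CPM, Ccne2 at 139 against 46.1 CPM and Cdk4 at 374 against 180 CPM. The inhibitors ran in reverse. Cdkn2d had 124, 106, 79.5 and 67.2 CPM in S cells of control 1, control 2, cKO 1 and cKO 2, against 468, 417, 334 and 274 CPM in G2/M cells. Cdkn2c had a mean of 94.4 CPM in S against 165 in G2/M, and Cdkn1b 99.5 against 182. Ccnd3 differed less, with 1192 against 1355 CPM. These orders held in each of the 4 libraries, that of Ccnd3 included.

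By cluster, Cdkn2d and Cdkn2c differed among the blasts that carry mitotic genes. In the DPbla cluster led by Mki67, Top2a and Prc1, Cdkn2c had 251 and 282 CPM in control and 191 and 185 in cKO, and Cdkn2d had 556 and 476 CPM in control and 391 and 334 in cKO. In the cluster led by Cenpf, Cdc20 and Ccnb2, which act in G2 and mitosis, Cdkn2c was down to 48.4 and 58.5 CPM in control and 63.8 and 54.7 CPM in cKO, whereas Cdkn2d kept 308 and 285 CPM in control and 303 and 273 CPM in cKO, and Cdkn1b reached 246 to 277 CPM. The libraries of the genotypes overlapped there for Cdkn2c and Cdkn2d. Ccnd2 there had 5.74 and 5.77 CPM in control and 27.8 and 17.9 CPM in cKO.

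**Figure D3:**
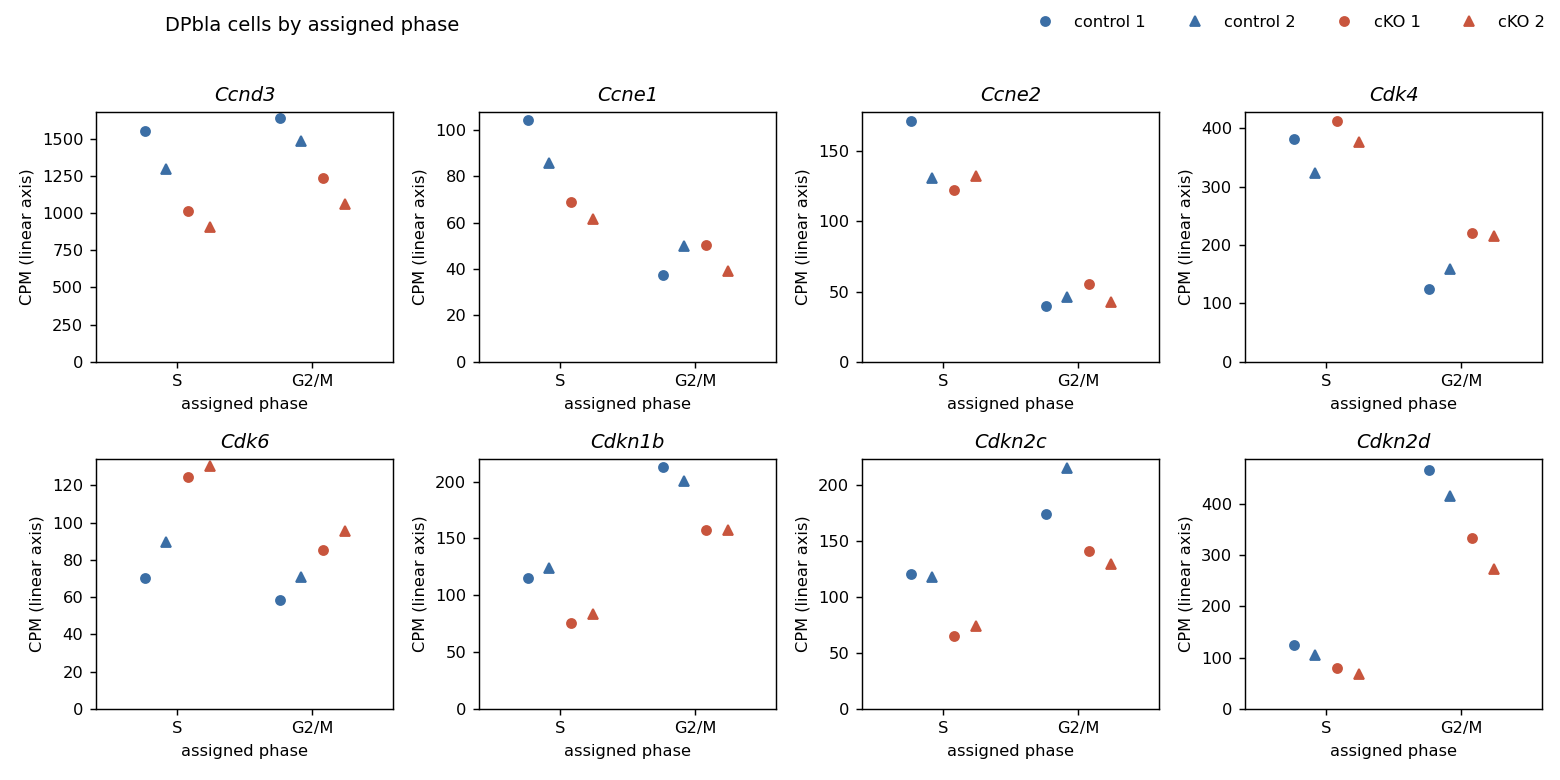
CPM (linear axis from 0) of 8 of the 10 genes in DPbla cells assigned to S and to G2/M, 1 point per library, with colour for genotype and symbol for the replicate number. Ccne1, Ccne2 and Cdk4 sit higher in S and Cdkn1b, Cdkn2c and Cdkn2d higher in G2/M, and the cKO points of Cdkn2c lie below the control points in both phases.

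More of the genes were called in DP blasts than in any other stage. There 6 of the 10 genes passed the test (edgeR quasi-likelihood test on UMIs summed per library, Benjamini-Hochberg adjusted p under 0.05 over all genes tested), against 3.03% of 10780 genes. Both kinases rose in cKO, 2 of 10 against 1.93% of all genes, and all 3 inhibitors and Ccnd3 fell, 4 of 10 against 1.1%. The median absolute log2 fold change was 0.44 over the 10 genes and 0.16 over all genes tested, and the signed medians were -0.06 and -0.00. Since the 10 genes were chosen with earlier results of these data known, these counts are a description.

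Cdk6 had 62.2 and 76.0 CPM in control and 98.6 and 107 CPM in cKO DPbla, a log2 fold change of 0.61 (SE 0.12, edgeR adjusted p = 0.0117). Cdk4 had 206 and 211 CPM in control and 286 and 268 CPM in cKO, a log2 fold change of 0.46 (SE 0.10, adjusted p = 0.0208). Both cKO libraries were above both control libraries for either kinase.

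Cdkn2c had 154 and 179 CPM in control and 114 and 110 CPM in cKO, a log2 fold change of -0.53 (SE 0.11, edgeR adjusted p = 0.0168). Cdkn2d had 355 and 312 CPM in control and 246 and 205 CPM in cKO, a log2 fold change of -0.52 (SE 0.11, adjusted p = 0.0169). Cdkn1b had 183 and 177 CPM in control and 130 and 133 CPM in cKO, a log2 fold change of -0.40 (SE 0.10, adjusted p = 0.0417). All 3 genes were lower in both cKO libraries than in either control library.

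Ccnd3 had 1611 and 1425 CPM in control and 1158 and 1011 CPM in cKO, a log2 fold change of -0.43 (SE 0.11, edgeR adjusted p = 0.048). Per DPbla cell this was 14.9 and 12.4 UMIs in control and 11.5 and 8.35 UMIs in cKO. Ccnd2 had 5.94 and 6.63 CPM in control and 10.2 and 11.6 CPM in cKO, and its log2 fold change of 0.83 (SE 0.22, adjusted p = 0.0542) missed the threshold. With the replicate number as a block Ccnd2 passed (edgeR adjusted p = 0.00407), as did 10.6% of all genes. Neither cyclin overlapped between genotypes, and Ccnd2 remained a small share of D cyclin UMIs, at 0.367% and 0.463% in control and 0.867% and 1.13% in cKO.

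The E cyclins did not pass, with a log2 fold change of -0.16 for Ccne1 (SE 0.12) and 0.03 for Ccne2 (SE 0.11). Ccnd1, at 1.51 to 3.11 CPM, did not pass either. In all, the genotypes were apart in CPM for 8 of 10 genes, and the same was true of 47.4% of all genes tested in DPbla, so separation of libraries alone is common here.

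**Figure D4:**
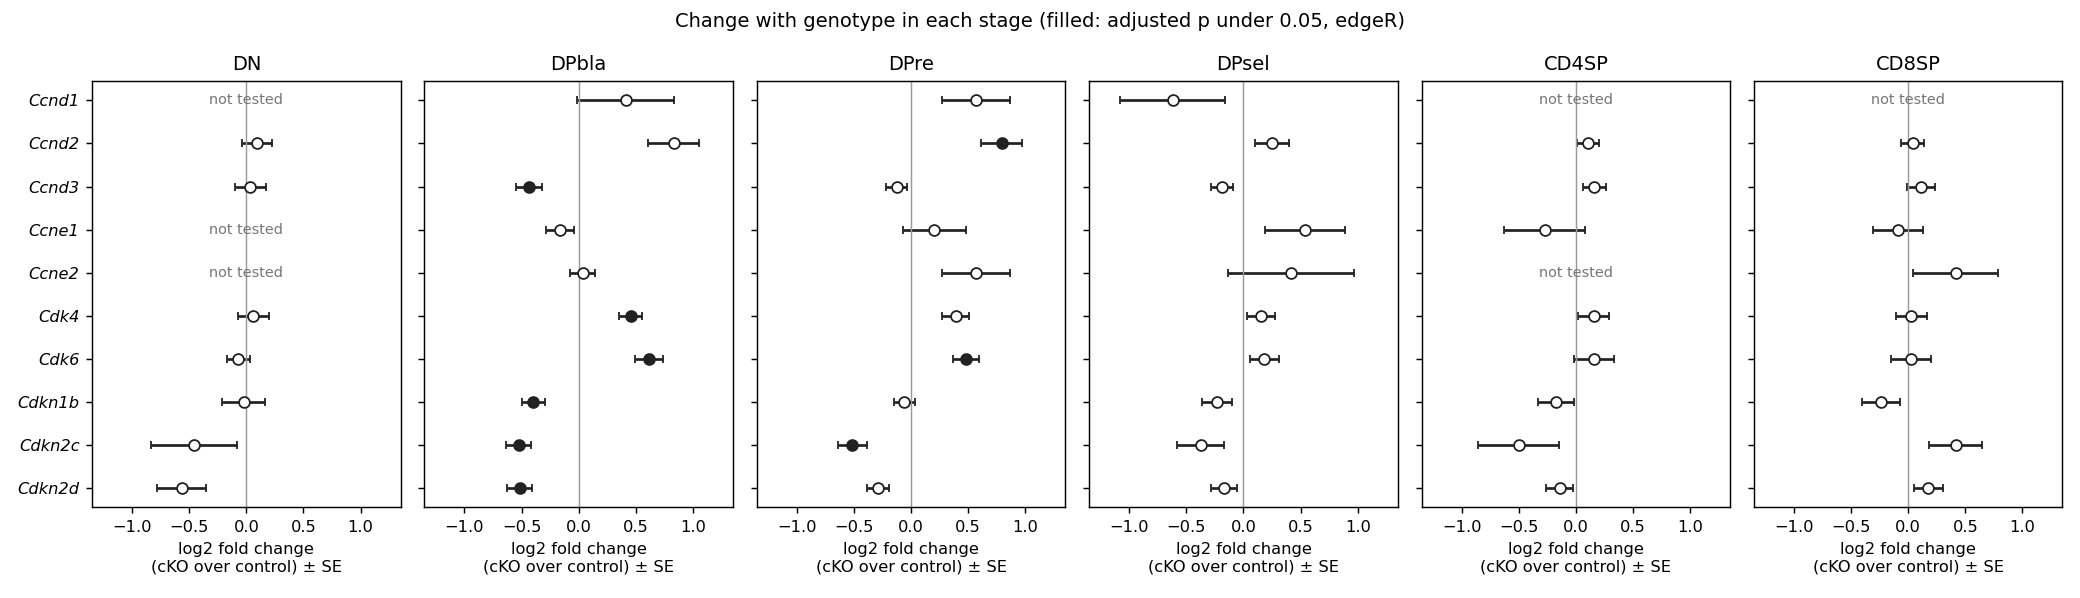
Log2 fold change (cKO over control, point) and its SE (bar) of each of the 10 genes in each stage from edgeR, filled where the adjusted p was under 0.05. Filled points stand to the right for Cdk4 and Cdk6 and to the left for Ccnd3, Cdkn1b, Cdkn2c and Cdkn2d in DPbla, and in DPre for Ccnd2 and Cdk6 to the right and Cdkn2c to the left.

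The make-up of the blasts also differed between genotypes, and its part in the result was not tested beyond the fits by phase given here. The S-phase cluster led by Cdc6, Pclaf and Hells held 27.1% and 29.3% of control and 36.0% and 37.9% of cKO DPbla cells, and the cluster led by Cenpf, Cdc20 and Ccnb2 34.7% and 29.5% of control and 24.8% and 23.6% of cKO. Within cells assigned to S, 5 of 9 genes passed (Ccnd3, Cdk6, Cdkn1b, Cdkn2c and Cdkn2d, against 2.34% of genes), with log2 fold changes of -0.71 for Cdkn2c and 0.72 for Cdk6. Cdk4 had a log2 fold change of 0.23 (SE 0.11, edgeR adjusted p = 0.377) in S cells, with libraries that overlapped. Within cells assigned to G2/M, 4 of 10 passed (Ccnd2, Cdk4, Cdkn2c and Cdkn2d, against 2.08%), with Cdk4 at 0.64 and Ccnd2 at 1.17. The calls of Cdk6 in DPbla (0.52, edgeR adjusted p = 0.051), Ccnd3 in DPbla (-0.41, 0.118) and Cdkn1b in DPbla (-0.35, 0.11) were lost in G2/M cells, with log2 fold changes close to those of all blasts. Cdkn2c and Cdkn2d were thus called in both phases.

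Values of other cells and of RNA quality that moved with genotype in DPbla were the following. Markers of DN cells (6 of 7 detected, Igll1 at 0) summed to 25.9 to 28.6 CPM in control and 42.2 to 44.9 CPM in cKO. Those of mononuclear phagocytes (8 of 8) summed to 226 to 260 CPM in control and 214 to 216 CPM in cKO, those of γδ T cells (6 of 6) to 207 to 220 and 175 to 188 CPM, and those of erythroid cells (4 of 5, Alas2 at 0) to 8.14 to 11.2 and 14.0 to 14.9 CPM. The blasts' own markers (8 of 8) summed to 5452 and 5311 CPM in control and 5074 and 4973 CPM in cKO, those of DPre (7 of 7) to 2243 and 1889 and to 1829 and 1794 CPM, and those of DPsel (7 of 7) to 176 to 194 and 159 to 166 CPM. The mitochondrial share of UMIs was 5.23 and 5.69% in control and 4.77 and 5.07% in cKO. A cluster of droplets with few UMIs and cycling-cell genes, not counted as blasts, held 3.31% and 3.68% of control and 7.84% and 6.02% of cKO cells. The part of these lists and shares in the result was not tested, except that with that cluster counted as blasts 7 of the 10 genes passed, against 2.82% of 10897 genes, Ccnd2 being the added one.

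Leaving out 1 library leaves a group of 1 library, and the spread of that fit then comes from the other group alone. In DPbla each of these 4 fits lost calls, which does not show that the library left out had carried them. Over these 4 fits the log2 fold changes kept their direction, from 0.46 to 0.82 for Cdk6, 0.41 to 0.51 for Cdk4, -0.65 to -0.37 for Cdkn2c, -0.65 to -0.39 for Cdkn2d, -0.42 to -0.38 for Cdkn1b and -0.53 to -0.34 for Ccnd3. At a mitochondrial limit of 5% Cdkn2c and Cdkn2d alone passed (2, against 1.24% of all genes), with log2 fold changes of 0.47 for Cdk4 in DPbla, 0.47 for Cdk6 in DPbla, -0.43 for Ccnd3 in DPbla and -0.37 for Cdkn1b in DPbla.

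In resting DPre cells 3 of 10 genes passed, against 2.13% of 11695 genes, with 2 higher in cKO (1.29% of all genes) and 1 lower (0.838%). Ccnd2 had 9.48 and 7.97 CPM in control and 14.9 and 14.3 CPM in cKO, a log2 fold change of 0.79 (SE 0.18, edgeR adjusted p = 0.0336). Cdk6 had 59.6 and 54.1 CPM in control and 82.0 and 72.4 CPM in cKO, a log2 fold change of 0.48 (SE 0.12, adjusted p = 0.0439). Cdkn2c had 34.7 and 37.1 CPM in control and 25.4 and 23.6 CPM in cKO, a log2 fold change of -0.52 (SE 0.13, adjusted p = 0.0486). All 3 adjusted values lay close to the threshold, and DESeq2 called none of the 3.

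Of the other members in DPre, Cdk4 had 75.2 and 68.8 CPM in control and 100 and 83.2 CPM in cKO (0.39, SE 0.12, edgeR adjusted p = 0.109). Cdkn2d had 250 and 278 CPM in control and 202 and 219 CPM in cKO (-0.29, SE 0.10, adjusted p = 0.163). Neither passed, although the genotypes did not overlap, which held for 9 of 10 genes and for 46.6% of all genes tested. With the replicate number as a block both passed (edgeR adjusted p = 0.00376 for Cdk4 and 0.00799 for Cdkn2d), as did 9.26% of all genes. Ccnd3 and Cdkn1b had the smallest changes, at -0.13 (SE 0.09) and -0.06 (SE 0.09). The median absolute log2 fold change was 0.44 over the 10 genes and 0.15 over all genes, and the signed medians were 0.30 and 0.00.

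In DPre too, each of the 4 fits without 1 library lost calls. Their spread again comes from 1 group alone, so this does not show that the library left out had carried the calls. Direction was kept in these fits, at 0.67 to 0.90 for Ccnd2, 0.38 to 0.58 for Cdk6 and -0.58 to -0.45 for Cdkn2c. Cells assigned to G1 made up 53.9% and 58.8% of control and 46.5% and 46.8% of cKO DPre. Those assigned to G2/M made up 37.3% and 32.9% of control and 43.1% and 43.2% of cKO DPre. Phase calls alone do not show cycling. DPre cells assigned to S had means of 4.80 CPM of Ccne1 and 3.83 CPM of Ccne2, against 4.28 and 3.04 CPM in those assigned to G1. For cells assigned to G2/M the E cyclins cannot tell. The DPbla cluster led by Cenpf, Cdc20 and Ccnb2 also had means of only 4.74 and 4.05 CPM. Markers of DN cells (7 of 7) summed to 31.7 to 33.6 CPM in control and 57.3 to 58.7 CPM in cKO, those of DP blasts (8 of 8) to 217 to 300 and 344 to 352 CPM, those of B cells (6 of 6) to 429 to 474 and 482 to 550 CPM, those of mononuclear phagocytes (8 of 8) to 244 to 262 and 263 to 271 CPM and those of erythroid cells (5 of 5) to 16.4 to 21.2 and 28.6 to 42.2 CPM. Markers of CD8SP (7 of 7), 3 of which are also in the list of CD4SP, summed to 42.2 and 40.1 CPM in control and 52.5 and 51.2 CPM in cKO DPre, and those of CD4SP (6 of 6) to 33.9 and 35.3 and to 36.6 and 36.0 CPM. The part of these lists in the result was not tested, that of single-positive cells in the value of Ccnd2 included.

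No member passed in the other 4 stages. In DN the test covered 7 of the 10 genes and called none, 1 had an unadjusted p under 0.05 and DESeq2 called none, against 0.0593% of all genes called by edgeR. That gene was Cdkn2d, with 62.3 and 67.3 CPM in control and 48.2 and 40.2 CPM in cKO (-0.57, SE 0.21, edgeR adjusted p = 0.49). Libraries of the genotypes did not overlap for 3 of 7 genes, against 37.1% of all genes. DN held 63, 97, 132 and 255 cells in control 1, control 2, cKO 1 and cKO 2, which limits what could be seen. Erythroid markers (4 of 5, Alas2 at 0) stood at 262 CPM in DN of cKO 1 and at 3.46 to 20.6 CPM in the others. Markers of DP blasts (8 of 8) summed to 372 and 333 CPM in control and 746 and 691 CPM in cKO DN, those of DPre (7 of 7) to 2367 and 1942 and to 1892 and 1932 CPM, and those of B cells (4 of 6, Cd79a and Ms4a1 at 0) to 230 and 207 and to 196 and 172 CPM. The mitochondrial share in DN was 6.90 and 7.05% in control and 5.95 and 6.11% in cKO. Their part in the values of DN, and in the differences from DN given after, was not tested.

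In DPsel 0 of 10 genes passed by edgeR or by DESeq2, and none had an unadjusted p under 0.05, against 0.469% of all genes called. Ccnd2 had 327 and 220 CPM in control and 372 and 272 CPM in cKO (0.25, SE 0.15, edgeR adjusted p = 0.663), with overlapping libraries. Without cKO 2 Ccnd2 in DPsel passed, at 0.465 (edgeR adjusted p = 0.0162), and without control 2 or without cKO 1 its log2 fold change was close to 0, at -0.0050 and -0.0016. Libraries did not overlap for 6 of 10 genes, against 39.4%. In CD4SP 0 of 8 passed by either tool and none at an unadjusted p under 0.05 (0.292% of all genes called), and 4 of 8 did not overlap (36.6%). In CD8SP 0 of 9 passed by either tool and none at an unadjusted p under 0.05 (0.596%), and 2 of 9 did not overlap (38.4%). For the abundant Ccnd2 the log2 fold change was 0.11 (SE 0.09) in CD4SP and 0.04 (SE 0.10) in CD8SP, and for Ccnd3 0.16 (SE 0.10) and 0.11 (SE 0.12). A test that misses the threshold does not show that the genotypes were alike.

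Whether the genotype effect differed between stages was tested directly, with the library as a block. Between DPbla and DPre, 1 of 10 genes differed, against 1.02% of all genes. The effect on Cdkn1b was lower in DPbla than in DPre by 0.34 on the log2 scale (SE 0.09, edgeR adjusted p = 0.0478), since its log2 fold change was -0.40 in blasts and -0.06 in resting cells. The difference for Ccnd3 was -0.31 (SE 0.10, adjusted p = 0.133) and for Cdk6 0.13 (SE 0.12), neither of which passed. Between DPbla and DN, 2 of 10 differed, against 1.23%. The effect on Cdk6 was higher in DPbla by 0.64 (SE 0.12, adjusted p = 0.000507) and that on Ccnd3 lower by 0.51 (SE 0.14, adjusted p = 0.0312). Between CD8SP and CD4SP 0 of 9 passed with edgeR, the tool used for this difference, 2 (Cdkn2c and Cdkn2d) had an unadjusted p under 0.05, and 0.0303% of all genes were called. Without any 1 of the 4 libraries the differences for Cdkn1b (-0.36 to -0.31) and Ccnd3 (-0.68 to -0.28) were no longer called, and that for Cdk6 was not called without control 1 (0.45) or without cKO 2 (0.57).

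The pathway list held 30 further genes, and all were in the files. In DPbla 28 were tested and 3 passed (10.7%, against 3.03% of all genes), with a median log2 fold change of 0.05, and in DPre 27 were tested and 3 passed (11.1%, against 2.13%), with a median of 0.12. Myc, a factor that drives growth and the G1 genes, had 18.2 and 13.6 CPM in control and 44.8 and 47.7 CPM in cKO DPbla, a log2 fold change of 1.61 (SE 0.15, edgeR adjusted p = 4.11e-05). In DPre it had 10.5 and 9.56 CPM in control and 38.8 and 22.1 CPM in cKO (1.63, SE 0.22, adjusted p = 0.00143). Its relative Mycn went the other way in DPbla, from 6.15 and 6.63 to 1.08 and 2.05 CPM (-1.93, SE 0.35, adjusted p = 0.00623). In DN, where Myc had 131 to 208 CPM, neither passed.

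Among the other inhibitors, Cdkn1a (p21Cip1) rose from 4.24 and 3.77 to 7.41 and 9.80 CPM in DPbla (1.17, SE 0.27, edgeR adjusted p = 0.0218) and from 1.92 and 1.83 to 5.49 and 4.14 CPM in DPre (1.38, SE 0.32, adjusted p = 0.0363). In CD4SP, where it had 0.760 and 0.342 CPM in control and 7.16 and 4.87 CPM in cKO, it was the only gene of the list to pass (1 of 24, against 0.292% of all genes, adjusted p = 0.0216), on a few UMIs in control. Beside it in CD4SP, markers of mononuclear phagocytes (8 of 8) summed to 146 and 128 CPM in control and 181 and 168 CPM in cKO, those of erythroid cells (5 of 5) to 11.3 to 12.9 and 17.5 to 22.8 CPM, those of γδ T cells (5 of 6, Trdv4 at 0) to 21.9 to 31.5 and 36.5 to 45.7 CPM, those of thymic epithelial cells (7 of 7) to at most 17.5 CPM in control and at least 19.9 CPM in cKO, and those of DP blasts (8 of 8) to 203 to 236 and 251 to 274 CPM. The stage's own markers (6 of 6) summed to 1786 and 2007 CPM in control and 1632 and 1594 CPM in cKO, and the mitochondrial share was 5.60 and 5.83% in control and 4.94 and 5.35% in cKO. Their part in the call of Cdkn1a was not tested. In DN (24 tested), DPsel (26) and CD8SP (23) edgeR called none of the list, and 5, 3 and 2 had an unadjusted p under 0.05, against 643 of 8429, 1003 of 10664 and 713 of 8900 of all genes.

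The retinoblastoma family, the targets of the D cyclin kinases, did not pass in either DP stage, with Rb1 at -0.12, Rbl2 at -0.07 and Rbl1 at 0.00 on the log2 scale in DPbla. Of 10 E2F and DP factors none passed in DPbla, where E2f6 (0.42), E2f3 (0.33) and E2f7 (-0.26) had the largest values, and E2f2 passed in DPre, from 117 and 126 to 150 and 167 CPM (0.42, SE 0.10, edgeR adjusted p = 0.0456). None of 5 other kinases and activators passed, with Cdk2 at -0.28, Cdc25a at 0.26 and Mnat1 at 0.12 in DPbla. In DPre these were Cdc25a at 0.46, Cdk7 at -0.16 and Cdk2 at -0.16. None of the genes for turnover of Cdkn1b and of D and E cyclins passed in either DP stage. The largest values were those of Skp1a (0.29), Skp2 (0.27) and Cul1 (0.10) in DPbla. In DPre they were those of Cks1b (0.46), Skp1a (0.24) and Skp2 (0.18).

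The patterns over 6 stages in 4 libraries (24 profiles of log2(CPM + 5), 6108 genes with a mean of at least 20 CPM) were compared by Pearson's r as a description, since the profiles share libraries and depth. Ccnd2 was most like St3gal1 (0.986), Cd82 (0.983) and Il7r (0.982), and Ccnd3 most like Trbc2 (0.975), Ptms (0.966) and Lrrc42 (0.965). Cdk6 was nearest to Myl10 (0.980), Hes1 (0.980) and Pld4 (0.978), of which Myl10 and Hes1 are among the markers that named DN. Cdk4 lay nearest to Mrpl12 (0.970), Acot7 (0.965) and Nop58 (0.955). Among the inhibitors, Cdkn1b was most like Stx6 (0.970), Csrnp1 (0.970) and Mtss1 (0.960), Cdkn2c most like Cenpl (0.958), Ube2s (0.956) and Cdk2 (0.955), and Cdkn2d most like Adgre5 (0.947), Rb1 (0.933) and Rhoa (0.921). Between members, Ccnd3 went with Cdkn1b (0.895) and Cdkn2d (0.843) and against Ccnd2 (-0.86), and Cdk6 went against Cdkn2d (-0.799).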

How the data were processed

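The authors counted UMIs per gene and cell with cellranger 6.1.1 at default parameters on mm10 and deposited the filtered matrices of raw counts, 1 per library, with no normalization. Cells with under 200 genes, among the 2.5% with the most or the fewest UMIs of a library or over 10% mitochondrial UMIs were left out, and the 5% with the highest Scrublet score were removed (scanpy 1.11.5), which left 5648, 8441, 7298 and 12027 cells. The 3000 most variable genes without the 10 described, 30 components, 20 neighbours and Leiden clustering (leidenalg 0.10.2, resolution 1) gave the clusters. These were named from 12 marker lists by rules whose thresholds were set after the clusters had been seen. One gene of the erythroid list is not reported here, and the sums of that list leave it out. Phases came from Seurat 5.3.0 lists on cells thinned to 1000 UMIs. UMIs were summed per library and stage (at least 30 cells in each library) and tested with edgeR 4.0.16 (TMM, filterByExpr, genotype as single term) in R 4.3.3, after a check on simulated counts. The SE is the fold change over the square root of F. Genes named are the 10, called genes of a fixed pathway list or the 3 with the largest change of each uncalled group (given for the DP stages), the 3 most alike patterns per gene with a mean of at least 20 CPM, and Tox4. The 10 genes and all lists were chosen with earlier results of these data known. Gene positions are 1-based, GENCODE M21. Alternatives included DESeq2 1.42.0, other scaling, no filter, a replicate block, other cell filters and clusterings, and leaving out each library.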

Additional observations from a re-analysis of the deposited data

Results flagged for a closer look

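For 3 of the 10 genes the effect of genotype differed between stages by a test of that difference (edgeR, stage by genotype). The log2 fold change of Cdkn1b was -0.40 in DPbla and -0.06 in DPre, a difference of -0.337 (adjusted p = 0.0478). It was not called without any 1 of the 4 libraries, with no filter on low counts or at a mitochondrial limit of 5%, while its direction was kept. The log2 fold change of Ccnd3 was -0.43 in DPbla and 0.03 in DN, a difference of -0.513 (adjusted p = 0.0312), also lost without any 1 library. The log2 fold change of Cdk6 was 0.61 in DPbla and -0.07 in DN, a difference of 0.64 (adjusted p = 0.000507), kept without control 2 and without cKO 1 and lost without control 1 (0.45) and without cKO 2 (0.57). DN had 63 to 255 cells per library and DPbla 510 to 1421.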

How the results depend on the processing

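The 6 genes called in DPbla kept their direction under all 16 alternatives, and the 3 called in DPre under all 13. In DPbla, DESeq2 and library totals each called 6 of the 10 genes, RLE factors and clustering with the 10 genes 5, resolution 1.5 4, and no filter or kept doublets 7, against 2 at a mitochondrial limit of 5%. Of all genes, 1.99, 3.37, 2.94, 2.72, 2.70, 3.58, 3.40 and 1.24% were called under these settings, in that order. In DPre, DESeq2 and library totals called 0, RLE factors, the 5% limit, kept doublets and clustering with the 10 genes 1 each, in place of 3, against 1.57, 1.37, 1.70, 0.877, 1.96 and 1.75% of all genes. In DPsel the 5% limit called 1 (Ccnd2, 0.52), and for the difference of DPbla from DPre no filter and the 5% limit called 0. That limit left too few DN and CD8SP cells for a fit. Scaling moved the median of all genes by at most 0.051.

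The study describes 2 pairs of mice and littermate controls, but the sources used here do not tie a library number to a pair. Same-numbered libraries deviated together weakly (r of 0.0819 to 0.302 by stage). Their shares of deposited cells over the 10% mitochondrial limit were alike, at 48.3% and 46.1% in control 1 and cKO 1 and 20.6% and 23.1% in control 2 and cKO 2. A fit with a replicate block called 7 of the 10 genes in DPbla (against 10.6% of all genes) and 5 in DPre (9.26%), and none in the other stages. The added ones were Ccnd2 in DPbla (0.84, edgeR adjusted p = 0.00407) and Cdk4 in DPre (0.38, 0.00376) with Cdkn2d in DPre (-0.29, 0.00799). Of all genes the replicate block called 112 (DN), 1141 (DPbla), 1083 (DPre), 325 (DPsel), 109 (CD4SP) and 158 (CD8SP), against 5, 327, 249, 50, 28 and 53 without it.

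With no filter on low counts, 68, 619, 630, 157, 92 and 121 genes were called in the same order. DESeq2 called 2 in DN, 215 in DPbla, 20 in DPsel and 13 in CD8SP. Library totals gave 160 (DPre), 64 (CD4SP) and 23 (CD8SP). The 5% limit gave 123 in DPbla, 81 in DPre and 1 in CD4SP. Clustering with the 10 genes gave 2 in DN and 21 in DPsel, and resolution 1.5 gave 2 in DN, 21 in DPsel, 72 in CD4SP and 29 in CD8SP. Kept doublets gave 17 in CD4SP, and G2/M cells alone 213 in DPbla. Leaving out 1 library gave 18 to 62, 179 to 535, 119 to 338, 37 to 124, 46 to 79 and 54 to 133 in that order. For the 10 genes these fits called 1 to 5 in DPbla, 0 to 2 in DPre, 0 to 1 in DPsel, and 0 to 1 for the difference of DPbla from either DPre or DN. The cause of these shifts was not tested.

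Log2 fold changes that turned were all of genes not called. These were Ccnd1 (-0.57) and Ccne2 (-0.0262) in DPbla and Cdk6 (-0.19) in CD4SP at the 5% limit, Ccne2 in DPbla with library totals (-0.0152), at resolution 1.5 (-0.0417) and in S cells (-0.17), Ccne1 in G2/M cells of DPbla (0.0417) and with doublets kept in CD8SP (0.12), and at resolution 1.5 Cdkn2c in CD4SP (0.51) and, in CD8SP, Cdkn2c (-0.37) and Cdkn2d (-0.0019). Leaving out 1 library turned, with ranges over the 4 fits, Ccnd2 (-0.0224 to 0.20), Ccnd3 (-0.0784 to 0.14), Cdk4 (-0.0773 to 0.26) and Cdkn1b (-0.13 to 0.0668) in DN, Ccne2 in DPbla (-0.0204 to 0.0893), Ccne1 in DPre (-0.039 to 0.44), Ccnd2 (-0.0050 to 0.54), Ccne2 (-0.14 to 1.10) and Cdk4 (-0.0367 to 0.33) in DPsel, Ccne1 (-0.71 to 0.0562), Cdk4 (-0.0482 to 0.34), Cdk6 (-0.0501 to 0.34) and Cdkn1b (-0.56 to 0.14) in CD4SP, and Ccnd2 (-0.0011 to 0.0804), Ccnd3 (-0.0255 to 0.26), Ccne1 (-0.39 to 0.13), Ccne2 (-0.20 to 0.79), Cdk4 (-0.11 to 0.16) and Cdk6 (-0.11 to 0.16) in CD8SP.

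Levels moved with the mitochondrial limit and with how clusters were drawn. In DN, Cdk6 had a mean of 704 CPM at the 5% limit, Cdkn2c 27.4 CPM and Ccne2 13.1 CPM. Among larger stages, Cdkn2c had 35.3 CPM in DPre at that limit and 154 CPM in DPbla at resolution 1.5. At resolution 1.5 cycling cells joined other classes, so that Cdkn2c had 19.0 CPM in CD4SP and 11.3 CPM in CD8SP. Depth limits Ccnd1 in all T stages, Ccne1 outside DPbla and CD8SP, and Ccne2 outside DPbla, which rest on under 200 UMIs per stage.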
